A study of Mus musculus with 4 samples.

Results

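Mouse mammary epithelial cells of 2 classes, secretory and basal, 6272 in number, were compared between a library from mice with the Y541S form of the estrogen receptor and a library from wild-type mice, both treated with giredestrant. They are 6272 of the 11651 cells kept in these libraries and of 25950 kept in the whole series. A cell was called secretory when the genes Wfdc18, Csn3, Elf5 and Kit together held 10 or more of every 10000 UMIs (unique molecular identifiers, 1 per captured transcript) and the contractile genes Acta2, Myh11, Mylk and Tagln together held fewer than 10. It was called basal when the contractile genes held 20 or more and the keratin genes Krt5 and Krt14 10 or more. In both classes the hormone-receptor genes Esr1, Prlr, Areg and Foxa1 had to hold fewer than 10. Secretory cells numbered 588 with the wild-type receptor and 1305 with Y541S, and basal cells 942 and 3437.

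The series has 4 single-cell libraries of 3′ transcript ends, 1 for each combination of Esr1 genotype (WT or Y541S) and treatment (vehicle or giredestrant). Every mouse, controls included, carried pellets of estradiol and progesterone, was 6 months old, and received a daily dose for 4 days. The compound group had 30 mg/kg giredestrant by mouth, an orally active antagonist and degrader of the estrogen receptor (labelled SERD, a selective estrogen receptor degrader), and the vehicle group had MCT alone. Cells were sorted for the epithelial surface protein EpCAM. One label calls the material mature luminal cells, whereas the sort also held basal cells, which made up 31.1% and 39.9% of kept cells in the giredestrant libraries. The labels state neither the number of mice per library nor whether Y541S was carried on 1 allele or both. With 1 library per group there is no spread between replicates, so no test was made and no p-value is given, and a difference between libraries cannot be told apart from a difference between genotypes. Intervals in the text are exact 95% intervals that cover counting error only.

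The mammary epithelium is a bilayer. Inner luminal cells are divided into hormone-sensing cells, which carry the estrogen receptor, and secretory cells, which mostly lack it and are the source of milk after progesterone and prolactin act on the gland. Milk protein genes are switched on through the prolactin receptor, the kinase JAK2 and the transcription factor STAT5. Outer basal cells are contractile, anchor the bilayer to the basement membrane and eject milk in response to oxytocin. Hormone-sensing cells act on both neighbours through secreted factors such as amphiregulin, RANK ligand and WNT4.

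The Y541S giredestrant library was sequenced over more and shallower cells. Its secretory cells had a median of 6998 UMIs against 20788.5 in the wild-type library, and its basal cells 5662 against 18558. Summed over each class, the totals were nearer, at 11596859 against 14374063 UMIs for secretory cells and 22913357 against 18744496 for basal cells. Levels are therefore given as CPM, the counts of a gene scaled to the same class total, and log2 ratios are given relative to the median tested gene, which lay at -0.067 in secretory and -0.049 in basal cells. A gene was tested when its mean over the pair of libraries was 10 CPM or more. Median mitochondrial shares were 2.81% against 1.65% in secretory cells and 2.63% against 2.15% in basal cells. The giredestrant libraries shared 7 cell barcodes, 0.231% of the smaller library, and no pair of the 4 libraries shared more than 23.

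The class names were checked on markers that the gates had not used. In secretory cells, 9 further secretory markers (among them Lcn2, Ltf, Trf, Krt8 and Krt18) summed to 10144 CPM in the wild-type library and 9608 in the Y541S library, against 32.7 and 38.2 CPM for 6 further basal markers. In basal cells the order was the opposite for basal markers (Trp63, Cnn1, Myl9, Oxtr, Snai2 and Krt17), with 3799 and 3803 CPM, although the secretory markers, which basal cells also express in part, still summed to 2432 and 2423 CPM. The sums for 5 further hormone-sensing markers lay between 23.0 and 55.7 CPM in both classes and libraries. Secretory cells made up 19.4% (18.0 to 20.9) of kept cells in the wild-type and 15.1% (14.4 to 15.9) in the Y541S giredestrant library, shares that the sort, dissociation and depth can set.

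Milk protein genes formed the widest difference between the secretory cells of the giredestrant libraries. The beta-casein gene Csn2 was not detected among all UMIs of wild-type secretory cells and stood at 3271 CPM with Y541S. The alpha-S1 and alpha-S2 casein genes Csn1s1 and Csn1s2a were present at a few CPM against more than 1000. Kappa-casein, Csn3, which helped to choose the cells, was nearly level at 907 and 936 CPM, as was Wfdc18, another gate gene, at 5756 and 4914 CPM. Of the other secretory gate genes, Kit was at 222 and 234 CPM, and Elf5 was lower with Y541S, at 153 against 246 CPM.

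The casein genes, Csn3 included, lie in 1 cluster on chromosome 5 (GRCm38), with Csn1s1 at chr5:87666208-87682578 on the plus strand, Csn2 at chr5:87692624-87699630 on the minus strand, Csn1s2a at chr5:87774567-87788797 and Csn3 at chr5:87925579-87932665, both on the plus strand. The 250 bases before the RefSeq start of the main members are shown because both hold the palindromic letters TTCNNNGAA, the form that STAT factors recognise, here in capitals. They cover chr5:87699426-87699675 on the minus strand for Csn2, which overlaps the longer GENCODE model of that gene, and chr5:87665958-87666207 on the plus strand for Csn1s1 (RefSeq, GRCm38.p6).
Csn2: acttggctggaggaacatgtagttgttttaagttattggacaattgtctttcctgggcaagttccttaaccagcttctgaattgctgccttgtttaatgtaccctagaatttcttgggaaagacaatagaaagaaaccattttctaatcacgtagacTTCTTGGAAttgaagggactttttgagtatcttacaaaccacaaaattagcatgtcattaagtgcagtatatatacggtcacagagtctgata
Csn1s1: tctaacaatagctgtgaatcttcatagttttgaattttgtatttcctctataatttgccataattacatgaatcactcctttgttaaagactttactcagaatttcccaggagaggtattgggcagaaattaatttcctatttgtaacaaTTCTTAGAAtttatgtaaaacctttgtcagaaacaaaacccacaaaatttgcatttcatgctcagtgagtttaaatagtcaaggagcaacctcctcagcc
In Csn2 the match reads TTCTTGGAA and begins 93 bases before the start. In Csn1s1 it reads TTCTTAGAA and begins 100 bases before the start. The same letters TTCTTAGAA occur 20 bases after the RefSeq start of Csn1s2a, and Glycam1 holds TTCCCAGAA 145 bases before its start. No match was found in the windows of Lalba, Wfdc18, Socs1 or Stat5a. Of 32851 mouse promoter windows of 300 bases (250 before to 50 after the start), 8.30% held these letters, whose reverse complement reads the same, so a match describes the sequence and is no evidence of binding.

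Csn2 stood at 30.7 CPM in wild-type vehicle, 0 in wild-type giredestrant, 10.4 in Y541S vehicle and 3271 CPM in Y541S giredestrant secretory cells. With the floor of 3 counts over the wild-type class sum, the relative log2 ratio of the Y541S to the wild-type giredestrant library was 14.00, and the exact interval placed it at no less than 13.70. Csn1s1 had 58.0, 4.59, 87.5 and 3633 CPM in the same order of libraries, a relative log2 ratio of 9.69 (9.35 to 10.07) between the giredestrant libraries. Csn1s2a had 2.77, 1.18, 3.35 and 1010 CPM, a relative log2 ratio of 9.81 (9.13 to 10.59). For each of these caseins the Y541S giredestrant library was the highest of the 4 and the wild-type giredestrant library the lowest.

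The casein signal was spread over most secretory cells and was not held by a few. After every cell was thinned to 2000 UMIs, which left out 6 wild-type and 104 Y541S secretory cells that were shallower, 85.7% (83.6 to 87.6) of Y541S cells held a UMI of Csn2, Csn1s1 or Csn1s2a, against 0.687% (0.188 to 1.75) of wild-type cells. For Csn2 alone the shares were 66.2% (63.4 to 68.9) and 0 of 582, which allows a share of up to 0.632%, and without thinning 75.9% and 0. The median Y541S secretory cell held 8 casein UMIs of its 2000 and the highest 270, and the tenth of cells with the most held 45.1% of them. Basal cells and hormone-sensing cells of the same library, which should lack caseins, held a casein UMI in 11% and 11.6% of thinned cells, and 9 basal cells held 10 or more. Their Csn2 levels were 1.79% and 1.84% of the secretory level, similar to the 1.85% and 2.43% for Wfdc18, so the share in secretory cells lay far above that in cells that should lack the genes. The plot of casein UMIs per cell shows the shares at every threshold.

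**Figure D1:**
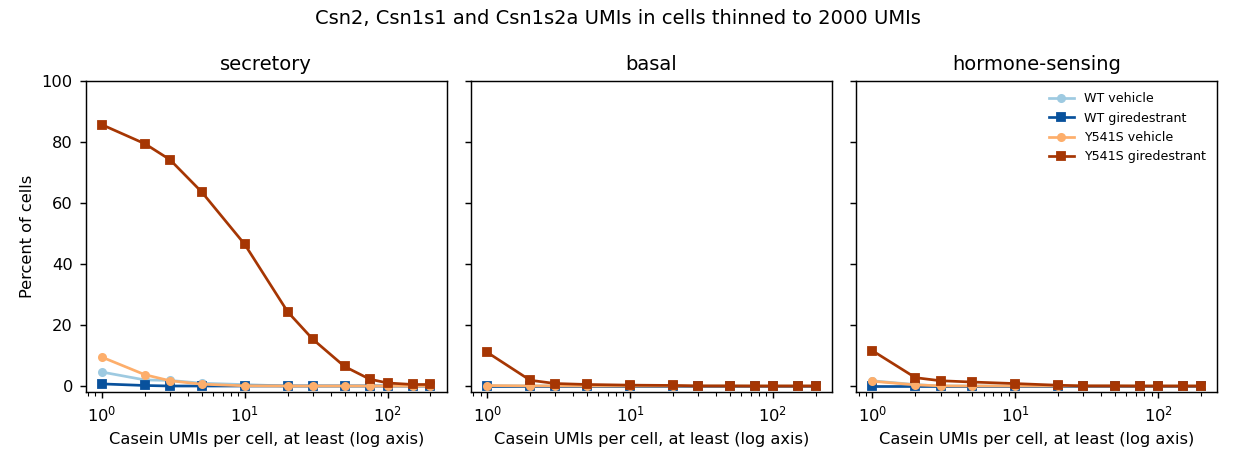
Share of cells (vertical axis, percent) that hold at least a given number of casein UMIs (horizontal axis) after thinning to 2000 UMIs. Curves are drawn for secretory, basal and hormone-sensing cells of every library, vehicle included. The curve of Y541S giredestrant secretory cells begins at 85.7% for 1 UMI and is still at 46.5% for 10. Wild-type giredestrant secretory cells begin at 0.687%. Basal and hormone-sensing cells of the Y541S giredestrant library begin at 11% and 11.6%.

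Of 13 milk protein genes listed besides Csn3, 9 were tested, and 6 stood at least 2-fold higher with Y541S while none stood 2-fold lower. Over all 8667 tested genes of secretory cells, 3.55% were 2-fold or more higher and 3.95% 2-fold or more lower, 7.5% either way. For the list as a whole the median was 1.65 on the relative log2 scale, with Csn2 and Glycam1 taken at the floor of 3 counts. Besides the caseins, Trf, encoding the iron carrier transferrin, stood at 1462 against 487 CPM, and Lalba, encoding the lactose synthase subunit alpha-lactalbumin, at 35.1 against 18.0 CPM. Glycam1, a milk mucin, was at 24.1 against 0 CPM, but 62.5% of its UMIs came from 5 cells. The other tested members pointed the other way without reaching 2-fold, with Ltf, encoding lactoferrin, at 37.8 against 75.1 CPM, Mfge8 at 889 against 1191 and Muc1 at 45.6 against 60.5. Csn1s2b, Lao1, Spp1 and Wap were below the level tested. With vehicle, 1 of 7 tested members was 2-fold higher and 2 were 2-fold lower with Y541S, and the median was 0.08.

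Genes for milk fat gave a smaller and mixed difference. Of 14 tested, 4 were 2-fold higher and 1 was 2-fold lower, with the list's median at 0.38 on the relative log2 scale. Lpl, encoding lipoprotein lipase, stood at 33.8 against 4.73 CPM (relative log2 ratio 2.90, 2.53 to 3.30). Btn1a1, encoding butyrophilin of the milk fat globule membrane, stood at 69.8 against 20.5 CPM, Plin2, a lipid droplet coat gene, at 289 against 138 CPM, and the fatty acid synthase gene Fasn at 51.5 against 25.1 CPM. Scd2, a desaturase gene, was lower at 5.6 against 15.9 CPM. Insig1 was the sole member of 10 tested cholesterol synthesis genes past 2-fold, at 14.1 against 6.75 CPM.

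On the pathway upstream of the caseins, 2 of 11 tested genes of prolactin and STAT5 signalling were 2-fold higher and none lower, with a median of 0.36. Stat5a was at 82.4 against 39.2 CPM (1.14, 0.99 to 1.29), and its feedback inhibitor Socs1 at 16.8 against 6.47 CPM (1.44, 1.08 to 1.82). Stat5a did not reach 2-fold when every cell was given equal weight. Stat5b, Jak2 and Cish, another STAT5 feedback gene, were higher by less than 2-fold, with relative log2 ratios of 0.73, 0.68 and 0.62. The prolactin receptor gene Prlr, limited by the gate, was level at 68.8 and 67.8 CPM. Relative to the median gene, Stat5a was 2.20-fold and Socs1 2.72-fold higher, where Csn1s1 was 829-fold and Csn1s2a 895-fold higher.

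Progenitor and differentiation genes of the secretory lineage did not follow the caseins. None of 12 tested members was 2-fold higher and 2 were 2-fold lower, with a median of -0.17. Aldh1a3, an aldehyde dehydrogenase gene that marks luminal progenitors, stood at 460 CPM in wild-type vehicle, 315 in wild-type giredestrant, 342 in Y541S vehicle and 117 in Y541S giredestrant, the lowest of the 4. Cited4 was at 44.8 against 96.4 CPM, and Lcn2, the most abundant member and an iron-sequestering lipocalin, at 897 against 1626 CPM. Luminal keratins and adhesion genes differed less, with 0 of 13 past 2-fold in either direction, Krt8 at 2870 against 2736 CPM and Krt18 at 2601 against 2783 CPM.

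Within the Y541S secretory cells, 571 (43.8%) held 50 or more casein UMIs per 10000 and 734 held fewer, with 170 cells within 20% of that limit, which cuts a continuous range. The cells above and below had median depths of 7480 and 6540.5 UMIs. Because caseins chose these cells, the values describe 1 library and are no comparison of groups. Csn3 was at 1365 CPM above the limit and 561 below, Btn1a1 at 103 and 41.0, Plin2 at 410 and 184, and Lpl at 51.6 and 18.2. Aldh1a3 went the other way, at 46.1 CPM above and 179 below, as did the Wnt ligand gene Wnt7b at 1.11 and 15.5 and the AP-1 gene Fos at 389 and 795. Other genes were far from the wild-type level on both sides of the limit. Muc4 was at 449 and 385 CPM, where wild-type cells had 41.0, Hk2 at 96.6 and 76.5, where wild-type cells had 13.3, and Gpc6 at 55.5 and 94.6, where wild-type cells had 1097.

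Besides the caseins, a membrane mucin gene and a pair of channel genes were far higher in Y541S secretory cells. Muc4, encoding a membrane mucin that can bind the receptor ERBB2, stood at 105 CPM in wild-type vehicle, 41.0 in wild-type giredestrant, 45.1 in Y541S vehicle and 415 in Y541S giredestrant (relative log2 ratio 3.41, 3.28 to 3.53). After thinning, 47.0% (44.2 to 49.9) of Y541S and 7.22% (5.25 to 9.63) of wild-type secretory cells held a Muc4 UMI, against 1.47% of Y541S basal cells, and without thinning the secretory shares were 74.3% and 31.6%. Aqp3, a water and glycerol channel gene, was at 60.1 against 3.55 CPM, and Cftr, the chloride channel gene, at 27.9 against 1.88. The Aqp3 difference was not particular to secretory cells. Aqp3 stood at 177 against 16.8 CPM in hormone-sensing cells and at 31.2 against 3.63 in basal cells. Lrrc7, a scaffold gene of neurons, was at 19.1 against 0.97 CPM, and Klhl29 at 27.3 against 1.95. Klhl29 was far more abundant in basal cells, at 514 CPM with Y541S and 641 in wild type. Hp, encoding haptoglobin, which binds free haemoglobin, was at 42.9 against 2.71 CPM, but the vehicle libraries held more, 61.9 in wild type and 261 in Y541S. Msln, encoding mesothelin, was at 28.2 against 1.04 CPM, with 77.4% of its UMIs in 5 cells.

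A few of the furthest genes were not particular to secretory cells. Gpx3, encoding a secreted glutathione peroxidase, stood at 46.9 against 2.71 CPM, which is 1.15% of its level in hormone-sensing cells of the same library, while the casein genes in basal cells stood at 1.17% to 1.97% of their secretory level. Calca, encoding calcitonin and the peptide CGRP, was likewise at 1.08% of its hormone-sensing level, at 40.8 against 6.47 CPM. The small transcript Mir6236, 1362 against 67.6 CPM, was as far apart in basal cells. Its mature microRNA was not measured by 3′ end counts.

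Hexokinase 2 and a pair of class I antigen presentation genes were higher with Y541S. Hk2, which phosphorylates glucose in the first step of glycolysis, stood at 15.2 CPM in wild-type vehicle, 13.3 in wild-type giredestrant, 13.7 in Y541S vehicle and 85.9 in Y541S giredestrant, while the other 11 tested hypoxia and glycolysis genes lay within 2-fold. B2m, encoding the light chain of class I molecules, stood at 331, 353, 303 and 1086 CPM in that order (1.69, 1.64 to 1.74), and H2-K1, a class I heavy chain, at 643, 639, 564 and 1439 CPM. In both cases 3 libraries were close and the Y541S giredestrant library stood above them. The other class I gene tested, H2-D1, was at 841 against 580 CPM, short of 2-fold. B2m and H2-K1 were 2 of the 6 tested genes of the class I and II list, and no member was 2-fold lower.

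Some interferon response genes were lower in Y541S secretory cells. Of 11 tested, 3 were 2-fold lower and none was 2-fold higher, 2 lay above the median gene, and the list's median was -0.92, whereas 3.95% of all tested genes were that much lower. Rtp4, an antiviral gene, stood at 10.6 CPM in wild-type vehicle, 41.5 in wild-type giredestrant, 16.5 in Y541S vehicle and 7.33 in Y541S giredestrant (-2.44, -2.78 to -2.11). Xaf1 was at 4.05 against 20.1 CPM and Ifi44 at 7.24 against 15.8 CPM, while Isg15 at 22.1 against 44.8, Ifit1 at 6.81 against 13.7 and Oasl2 at 11.4 against 22.6 CPM did not reach 2-fold. The wild-type giredestrant library was the highest of the 4 for Rtp4, Xaf1, Ifi44, Isg15, Ifit1 and Oasl2. The chemokine genes Ccl5, Cxcl9 and Cxcl10, at 44.7, 19.8 and 25.3 CPM in wild type against 0.17, 0.34 and 9.14 with Y541S, had 98.8%, 100% and 82.4% of their wild-type UMIs in 5 cells. Immune markers beside these genes summed to 8.14 CPM in wild-type and 12.3 in Y541S secretory cells over 6 markers, 1 of which was at 0 in each. The part of immune cells in these values was not tested.

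Among the genes furthest lower in Y541S secretory cells, Gpc6, encoding a cell-surface heparan sulfate proteoglycan of the glypican family, had the highest level. It stood at 1168 CPM in wild-type vehicle, 1097 in wild-type giredestrant, 564 in Y541S vehicle and 76.4 in Y541S giredestrant (-3.78, -3.88 to -3.68). After thinning, 68.9% (65.0 to 72.6) of wild-type and 9.66% (8.05 to 11.47) of Y541S secretory cells held a UMI, and without thinning 93.4% and 22.6%. In basal cells Gpc6 did not differ in that way, with a UMI in 68.1% and 79.1% of thinned cells. Hormone-sensing cells held a UMI in 5.96% and 7.74%, although their summed level was lower with Y541S, at 49.9 against 114 CPM. Dlg2, a scaffold gene of synapses, was at 4.83 against 154 CPM (-4.92, -5.33 to -4.54), and 26.3% of its wild-type UMIs were in 5 cells. With vehicle, Dlg2 was lower with Y541S too, at 117 against 532 CPM. Cst3, encoding the protease inhibitor cystatin C, was at 33.1 against 474 CPM (-3.77, -3.93 to -3.63), with 246 and 229 CPM in the vehicle libraries.

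Tspan8, a tetraspanin gene of the epithelial surface, stood at 162, 159 and 164 CPM in wild-type vehicle, wild-type giredestrant and Y541S vehicle and at 16.6 in Y541S giredestrant. The remaining lower genes were less abundant. Tfap2b and Lmx1b, both transcription factor genes, were at 1.64 against 38.4 CPM and 1.64 against 26.4 CPM. Rbp7, a retinol-binding protein gene, was at 2.16 against 36.6, Ntn4, encoding the laminin-like netrin 4, at 1.64 against 29.3, and Rftn2 at 1.12 against 20.04 CPM. In Tspan8, Tfap2b and Lmx1b the 3 other libraries lay close together and the Y541S giredestrant library stood below. Hbb-bs, a haemoglobin gene of red cells, was at 0.43 against 29.1 CPM with all of its wild-type UMIs in 5 cells, where red cell markers summed to 52.6 CPM against 0.52.

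**Figure D2:**
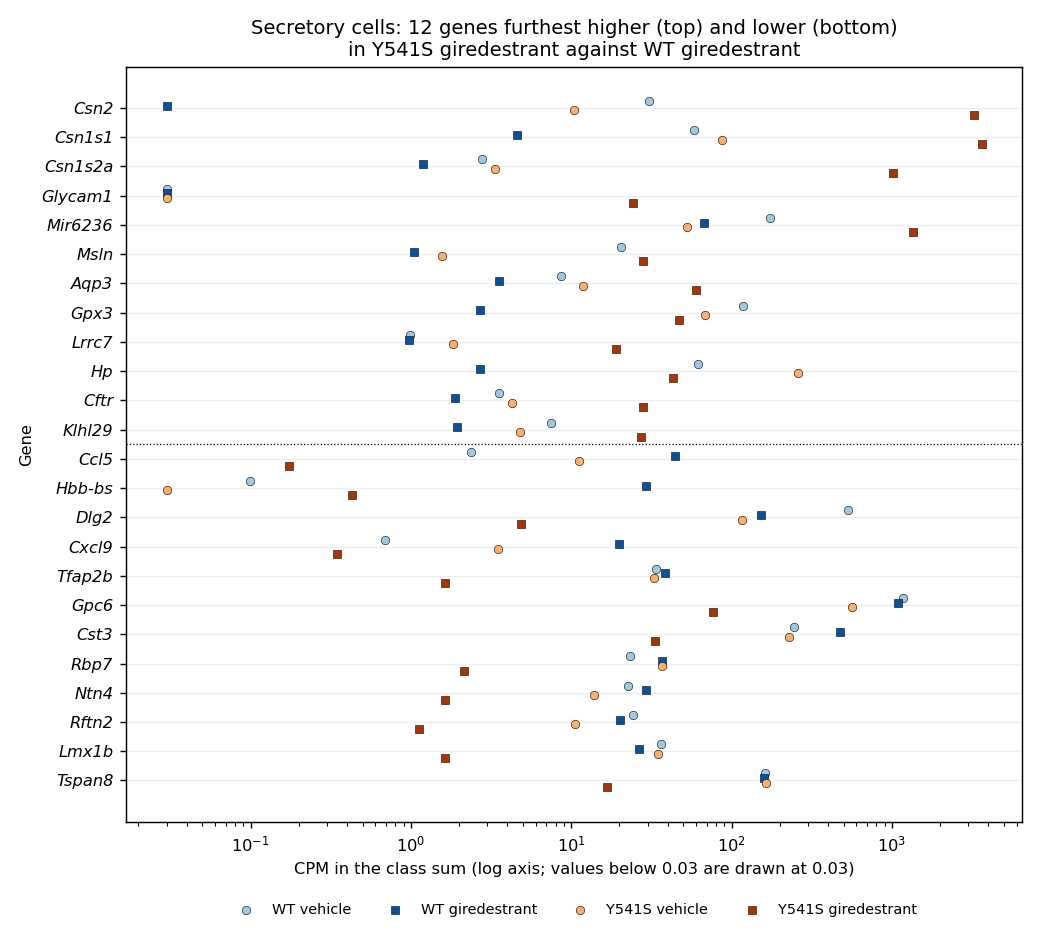
Level in CPM (horizontal log axis) of the 12 genes furthest higher and 12 furthest lower in Y541S against wild-type giredestrant secretory cells, with 1 point for each of the 4 libraries and no error bars, since each group is 1 library. Csn2 is at 0 in wild-type giredestrant, drawn at the left edge, and at 3271 CPM in Y541S giredestrant, and Gpc6 is at 1097 and 76.4 CPM.

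Stress, signalling and cell cycle lists completed the secretory picture. Of 15 immediate early and heat shock genes, 6 were 2-fold lower and 1 was 2-fold higher. Fos stood at 606 against 1768 CPM, Atf3 at 458 against 1307, Fosb at 492 against 1360, Ier2 at 136 against 349, Egr1 at 299 against 679, and the small heat shock gene Hspb1 at 263 against 566, while Hspa1b stood at 121 against 62.4 CPM. The Fos and Atf3 differences were not particular to secretory cells. In hormone-sensing cells Fos was at 416 against 2001 CPM and Atf3 at 379 against 1349. With vehicle, both were lower in Y541S secretory cells by less than 2-fold, Fos at 839 against 1568 CPM and Atf3 at 611 against 1006. Hspa1b, Insig1, Lamc1, Cxcl10, Cited4 and Cdk1 did not reach 2-fold when cells were thinned to 2000 UMIs. Hey1, a Notch target, was at 9.49 against 60.9 CPM, whereas its relative Heyl was at 16.3 against 5.22 and Hes1 was level. Wnt5b stood at 1552 against 667 CPM and Wnt7b at 8.80 against 20.5. Vegfa, the vascular growth factor gene, was at 70.2 against 32.1 CPM, Tgfb2 at 292 against 148, and the receptor gene Fgfr1 at 86.4 against 209. Itga3 and Lamc1, for laminin-binding integrin alpha 3 and laminin gamma 1, were at 56.7 against 14.1 and 71.2 against 34.0 CPM.

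No estrogen response gene was 2-fold apart in secretory cells, 0 of 12 tested in either direction, and neither was any of 10 unfolded protein response genes, 8 EGF family genes or 8 p53 targets. Of 10 progesterone and steroid response genes, Calca, Mt2 and Fkbp5 were 2-fold higher and Zbtb16 and Tsc22d3 2-fold lower. Calca stood at only 1.08% of its hormone-sensing level, in the range that genes of other classes reached. All 12 S phase genes lay below the median gene, with a median of -0.57 and only Dut, at 35.3 against 84.2 CPM, past 2-fold. The mitotic genes gave no single direction, with Cdk1 at 22.3 against 48.4 and Mki67 at 147 against 95.6 CPM. After thinning, 19.4% (17.2 to 21.8) of Y541S and 12.7% (10.1 to 15.7) of wild-type secretory cells held any UMI of 5 mitotic genes. Without thinning, 16.1% and 16.2% held 3 or more such UMIs. These limits differ, so no order is read from the shares.

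In basal cells the Y541S giredestrant library had higher levels of the stress keratin gene Krt16, the growth factor genes Hbegf and Vegfa and the cyclin genes Ccnd1 and Ccnd2, and lower levels of Krt15, the heparanase-related gene Hpse2 and the protease inhibitor gene Slpi. Of 8355 tested genes, 312 (3.73%) were 2-fold or more higher and 210 (2.51%) 2-fold or more lower, 6.25% either way. The vehicle pair gave 68 higher (0.841%) and 110 lower (1.36%) of 8089 tested. In secretory cells the counts were 308 higher and 342 lower, and 39 (0.453%) and 115 (1.34%) for the vehicle pair.

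Several of the genes furthest higher in basal cells were abundant in a neighbouring class of the same library. Csn1s1 and Csn2, at 64.0 and 58.5 CPM against 0, stood at 1.76% and 1.79% of their secretory level. Gpx3, Calca and the stress keratin gene Krt6a, at 44.8, 37.7 and 29.2 CPM against 2.35, 3.15 and 0.32, stood at 1.1%, 1.0% and 2.29% of their hormone-sensing level. All 5 lie in the range that genes of other classes reached in this library, and they are not described further as basal values. In the wild-type giredestrant library the same measure for Calca was 0.201%. Tested genes at or below 3% of another class numbered 15 in basal cells, of which 11 were among the 2-fold higher, and 13 in secretory cells, of which 7 were among the higher and 2 among the lower.

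Lingo2 had the highest lower interval bound among the higher genes whose level was highest in basal cells of the Y541S library, apart from Mir6236. It is a gene encoding a leucine-rich membrane protein best known from neurons (chr4:35706647-36951747, minus strand, GRCm38). It stood at 143 CPM in wild-type vehicle, 12.2 in wild-type giredestrant, 11.46 in Y541S vehicle and 186 in Y541S giredestrant (relative log2 ratio 3.99, 3.79 to 4.19). Thus wild-type vehicle and Y541S giredestrant were high and the other libraries low. After thinning, 19.6% (18.3 to 21.1) of Y541S and 1.71% (0.979 to 2.76) of wild-type giredestrant basal cells held a UMI, against 0.500% of Y541S secretory cells, and without thinning the basal shares were 30.8% and 5.94%. Stac, which encodes an adaptor of calcium channels, was at 157 against 15.7 CPM, with 62.4 and 89.5 in the vehicle libraries. Il11, a cytokine gene, stood at 21.5 against 1.49 CPM, the cytokine receptor gene Il31ra at 22.6 against 1.17, and Rgs4, a regulator of G protein signalling, at 20.9 against 1.17 CPM. Erdr1, 338 against 34.9 CPM, was as far apart in secretory cells, at 353 against 36.9 CPM. Il31ra was also higher in secretory cells, at 26.4 against 2.85 CPM, and in hormone-sensing cells, at 15.9 against 1.90.

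Keratin genes differed in direction. Krt16, a keratin of stressed and proliferating epidermis, was at 79.0 against 9.5 CPM (3.11, 2.88 to 3.34), with 53 and 31.7 CPM in wild-type and Y541S vehicle. In hormone-sensing cells of the giredestrant libraries Krt16 was higher with Y541S too, at 251 against 0.76 CPM. Krt15, a keratin of basal progenitor layers, was at 298 CPM in wild-type vehicle, 966 in wild-type giredestrant, 581 in Y541S vehicle and 345 in Y541S giredestrant (-1.44, -1.47 to -1.40). For Krt15, 53.6% (50.3 to 56.8) of wild-type and 29.4% (27.8 to 31.0) of Y541S giredestrant cells held a UMI after thinning, and 79.3% and 43.1% before it. Krt17 was level at 2294 and 2560 CPM. Krt5 and Krt14, which chose the cells, stood at 634 against 762 and 3343 against 2877 CPM.

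Contractile genes, the hallmark of the class, were mostly within 2-fold. Among 13 tested outside the gate, Smtn, encoding smoothelin, was 2-fold higher at 141 against 71.6 CPM, and the oxytocin receptor gene Oxtr was 2-fold lower at 61.8 against 152 CPM, where the vehicle libraries held 92.9 and 95.2. Cnn1, the calponin gene, was at 557 against 410 CPM, Myl9 at 577 against 516 and Actg2 at 243 against 376. Of the gate genes, Mylk and Myh11 were at 833 against 390 and 1187 against 659 CPM, and Acta2 and Tagln at 6715 against 5924 and 3630 against 3946 CPM. The basement membrane and integrin list had 17 of 19 tested members above the median gene and a median of 0.47, but only Itga3, at 183 against 87.3 CPM, was past 2-fold.

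The EGF receptor ligand genes Hbegf and Ereg and the vascular growth factor gene Vegfa were higher in Y541S basal cells. In the EGF family, 3 of 7 tested members were 2-fold higher, none was lower and the median was 0.85, beside 3.73% of all tested genes. Hbegf, encoding a heparin-binding EGF receptor ligand, stood at 143 CPM in wild-type vehicle, 45.7 in wild-type giredestrant, 69.9 in Y541S vehicle and 150 in Y541S giredestrant (1.76, 1.66 to 1.87). Ereg, encoding the ligand epiregulin, was at 17.5 against 7.52 CPM, and Erbb4, a receptor of this family, at 26.5 against 13 CPM, beside 820 CPM in secretory cells of the Y541S library. The part of transcripts from secretory cells in this Erbb4 value was not tested. The receptor gene Egfr was at 276 against 214 CPM and the ligand gene Nrg1, encoding neuregulin 1, at 1169 against 900, both within 2-fold, as were the ligand genes Tgfa and Nrg2. The wider IGF and growth factor list had 1 of 15 tested genes higher (Vegfa), 1 lower (Igfbp4) and a median of 0.10. Vegfa stood at 288, 96.5, 189 and 324 CPM in wild-type vehicle, wild-type giredestrant, Y541S vehicle and Y541S giredestrant (1.80, 1.72 to 1.87). For Hbegf and Vegfa the wild-type giredestrant library was the lowest of the 4, and wild-type vehicle and Y541S giredestrant were nearly level.

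Estrogen response genes gave few differences, with 2 of 15 tested higher and 1 lower. Greb1, a classical target of the estrogen receptor, was at 27.0 CPM in wild-type vehicle, 1.71 in wild-type giredestrant, 18.4 in Y541S vehicle and 20.7 in Y541S giredestrant (3.65, 3.13 to 4.21). It was detected in 4.17% (3.50 to 4.92) of Y541S and 0.427% (0.116 to 1.09) of wild-type basal cells after thinning, and in 10.8% and 2.65% without it. Its level in Y541S basal cells was 22.3% of that in hormone-sensing cells, above the 1 to 3% at which the genes of other classes stood, and in secretory cells it was 1.95%. Esr1 itself, kept low by the gate, was level at 21.6 and 21.2 CPM. Igfbp4, encoding an IGF-binding protein, was lower at 18.9 against 42.4 CPM. Pgr, encoding the progesterone receptor, was at 12.1 against 13.1 CPM.

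The genes of cyclins D1 and D2 were higher with Y541S in basal cells. Ccnd1, encoding cyclin D1, was at 63.5 against 16.6 CPM (1.98, 1.81 to 2.17) and Ccnd2, encoding cyclin D2, at 282 against 106 (1.46, 1.39 to 1.53), while Ccnd3 was at 37.0 against 56.0 CPM. The vehicle libraries were at 35.9 and 28.9 CPM for Ccnd1 and at 103 and 140 CPM for Ccnd2. Ccnd1 was far more abundant in secretory cells, at 607 CPM with Y541S and 426 in wild type. The part of transcripts from secretory cells in its basal value was not tested. A UMI of Ccnd2 was found in 36.4% (34.7 to 38.1) of Y541S and 13.9% (11.7 to 16.3) of wild-type thinned cells, and in 61.3% and 54.0% of unthinned cells. The cell cycle inhibitor gene Cdkn1a was at 200 against 102 CPM. Of 6 tested G2/M genes, 3 were 2-fold higher and none was lower, with Top2a at 50.2 against 15.9, Mki67 at 36.1 against 15.2 and Cenpf at 30.6 against 14.2 CPM, whereas no S phase gene of 8 was past 2-fold. The share of cells with any mitotic UMI was 5.77% (4.99 to 6.64) against 2.67% (1.73 to 3.91) after thinning. Without thinning, the share with 3 or more mitotic UMIs was 3.90% against 3.18%.

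A few genes of the steroid, acute phase, chemokine and stress lists were higher. Of 8 tested progesterone and steroid response genes, 3 were 2-fold higher, 1 of them Calca, which was set aside above. Sgk1, a kinase gene induced by glucocorticoids, was at 342 against 119 CPM and Fkbp5, encoding a chaperone of steroid receptors, at 17.9 against 8.38. The complement gene C3, at 174 against 51.4 CPM, was 1 of 6 tested NF-kB and acute phase genes past 2-fold, and the list's median was 0.03. The chemokine gene Ccl7, at 146 against 38.7 CPM, was 1 of 6 in its list, whose median was 0.24, and Ccl2 was at 189 against 169. The AP-1 member Fosl1 was higher, at 274 against 110 CPM, while Fos and Egr1 were lower, at 623 against 1689 and 413 against 1007 CPM. The interferon list differed less than in secretory cells, with 1 of 10 lower and a median of -0.30. Its lower member Ifit1, at 6.81 against 17.6 CPM, had 50.6% of its wild-type UMIs in 5 cells. Ndrg1, a hypoxia-induced gene, was at 251 against 105 CPM, 1 of 13 tested hypoxia and glycolysis genes past 2-fold. Luminal adhesion genes showed 3 of 10 higher and none lower. Cldn4 and Cldn7, both claudin genes of tight junctions, were at 27.8 against 5.17 and 19.6 against 5.98 CPM but stood at 3.72% and 2.73% of the level in a luminal class. Cdh1, the E-cadherin gene, was at 578 against 282 CPM.

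The 12 genes furthest lower in Y541S basal cells included Hpse2, Slpi, Brinp1 and Cpa6. Hpse2, encoding heparanase 2, which binds heparan sulfate, stood at 125 CPM in wild-type vehicle, 316 in wild-type giredestrant, 157 in Y541S vehicle and 16.9 in Y541S giredestrant (-4.18, -4.33 to -4.03). After thinning, 26.4% (23.6 to 29.3) of wild-type and 1.85% (1.41 to 2.38) of Y541S giredestrant cells held a UMI, and without thinning 43.6% and 3.67%. Secretory cells, at 2.41% and 3.16%, showed no such difference. Slpi, the secretory leukocyte protease inhibitor gene, stood at 3010, 700, 1457 and 132 CPM in wild-type vehicle, wild-type giredestrant, Y541S vehicle and Y541S giredestrant, so both giredestrant libraries were below both vehicle libraries and Y541S giredestrant was the lowest. Brinp1 was at 2.01 against 57.9 CPM (-4.80, -5.26 to -4.37), with 30.8% of its wild-type UMIs in 5 cells. With vehicle, Brinp1 was lower with Y541S too, at 41.1 against 167 CPM.

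Cpa6, a carboxypeptidase gene, was at 103 against 436 CPM, and 13.2% of Y541S against 42.5% of wild-type thinned cells held a UMI, or 24.5% against 80.7% unthinned. Ctgf, a matricellular growth factor gene, was at 27.9 against 118 CPM, and Chst9, a sulfotransferase gene, at 2.01 against 25.1. Xkr4 was at 30.7 against 143 CPM, the serpin gene Serpinb11 at 12 against 57.5, Ramp1, encoding a CGRP receptor subunit, at 13.9 against 56.4, and Nox4, encoding an oxidase that makes hydrogen peroxide, at 13.2 against 51.8. The transcription factor gene Klf2 was at 21.2 against 78.2 CPM and Shisa8 at 6.76 against 26.7. Wnt6 was the sole Wnt gene past 2-fold, at 9.47 against 31.6 CPM. Snai2, encoding the basal transcription factor SLUG, was higher, at 134 against 48.1 CPM.

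**Figure D3:**
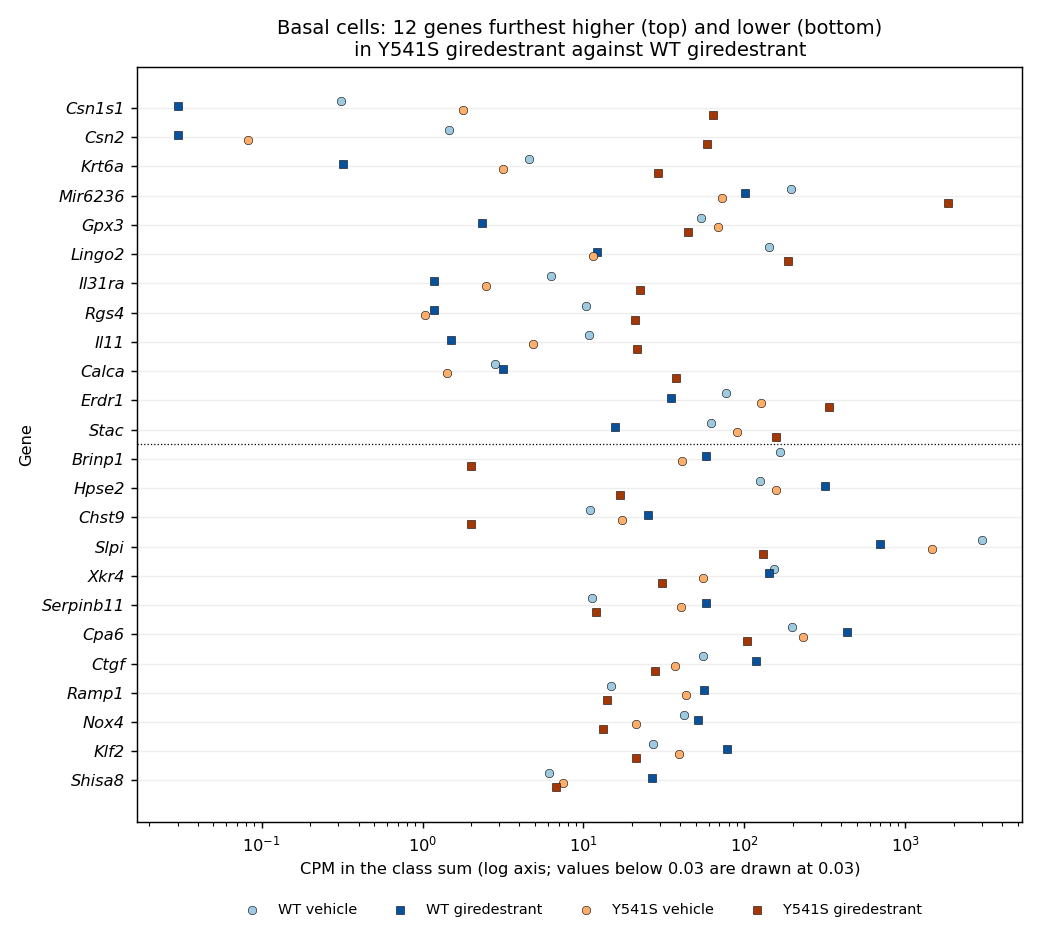
Level in CPM (horizontal log axis) of the 12 genes furthest higher and 12 furthest lower in Y541S against wild-type giredestrant basal cells, with 1 point for each of the 4 libraries and no error bars, since each group is 1 library. Lingo2 is at 12.2 CPM in wild-type giredestrant and 186 in Y541S giredestrant, and Hpse2 at 316 and 16.9, while the casein genes at the top reach only about 60 CPM.

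The remaining lists held few basal genes past 2-fold. Of 11 tested milk fat genes, the desaturase gene Scd1, at 27.3 against 7.63 CPM, and Fasn, at 42.5 against 17.3, were higher and Scd2, at 14.1 against 33.5, lower. Socs1 lay at the limit, at 84.7 against 43.8 CPM, and the collagen-binding integrin gene Itga2 stood at 159 against 62.7. H2-Ab1, a class II gene of antigen-presenting cells, was at 9.34 against 21.1 CPM, with 80.6% of its wild-type UMIs in 5 cells. No gene of cholesterol synthesis (7 tested), the Notch pathway (6 tested) or the unfolded protein response (11 tested) was past 2-fold. Igfbp4, Smtn, Cdkn1a, H2-Ab1 and Socs1 did not reach 2-fold when cells were thinned.

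Markers of cells outside the epithelium differed between the basal sums. The 6 fibroblast markers summed to 413 CPM in Y541S and 258 in wild-type giredestrant basal cells, the 5 pericyte and vascular smooth muscle markers to 39.5 and 8.64, the 5 endothelial markers to 19.9 and 5.28, and the 5 adipocyte markers, 1 of them at 0 in each library, to 30.5 and 2.93. Immune markers went the other way, at 4.80 and 28.3 CPM. The part of these cells in the basal values was not tested. By Scrublet score, 386 of the Y541S basal cells (11.2%) and 7 of the wild-type ones (0.743%) were among the cells taken as likely doublets. The number taken per library was fixed by its barcode count, at 877 for Y541S and 108 for wild type. These shares are therefore not measured doublet rates. Leaving those out gave 301 genes higher and 207 lower, and Krt6a, Cldn4 and Cldn7 were then below the level tested.

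The classes shared some differences and not others. B2m, 2-fold higher in secretory cells, was at 808 against 421 CPM in basal cells (0.99, 0.95 to 1.03), and H2-K1 at 1041 against 587. Fos was lower in both, and Vegfa, Itga3 and Fkbp5 were higher in both. The agouti gene, symbol a, encoding a melanocortin antagonist, went in opposite directions, at 1015 against 391 CPM in secretory cells (1.44, 1.40 to 1.49) and 1048 against 2346 in basal cells (-1.11, -1.14 to -1.09). Its basal level in the vehicle libraries was 1746 CPM in wild type and 7422 in Y541S. Krt15 was likewise opposite by value, but its 22.3 CPM in Y541S secretory cells was 2.04% of the level in hormone-sensing cells. The difference between the classes was not tested, because each class comes from the same pair of libraries.

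**Figure D4:**
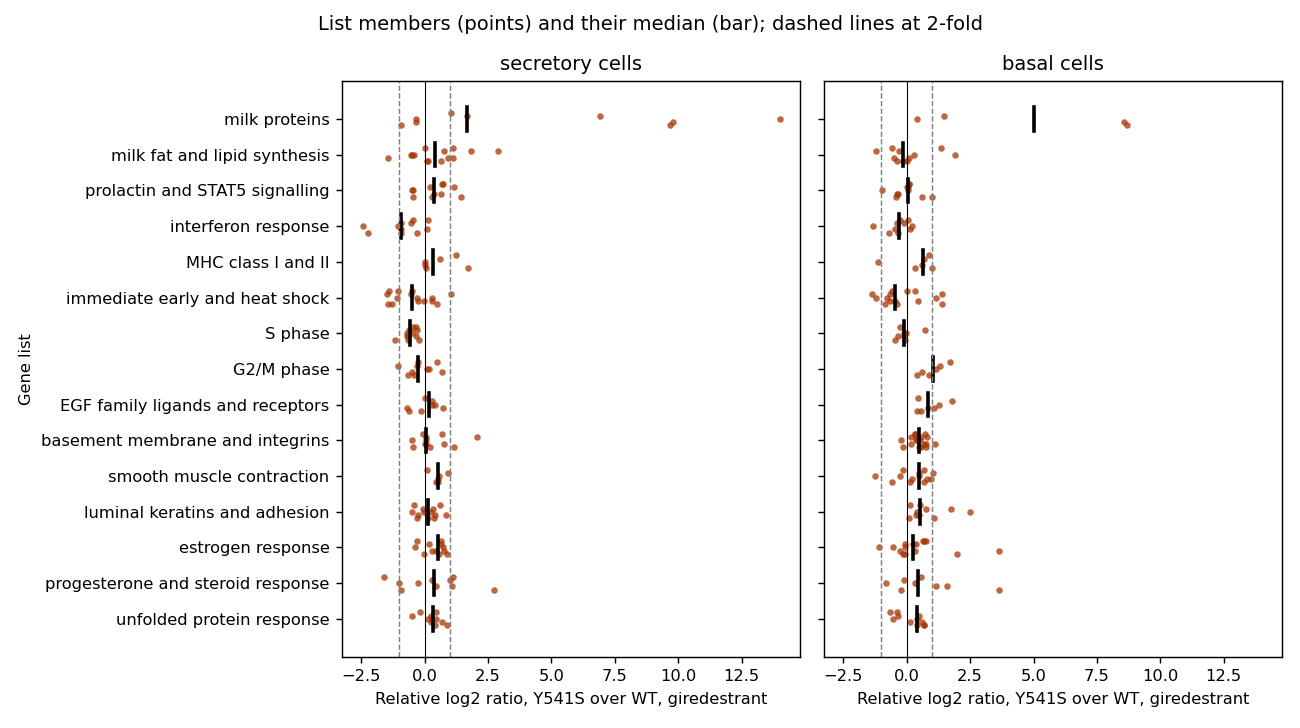
Relative log2 ratio (horizontal axis) of Y541S against wild-type giredestrant for the gene lists, in secretory and basal cells. Each point is a tested gene and each bar the list's median; 0 is the median of all tested genes. Milk proteins have a median of 1.65 in secretory cells, the interferon list lies at -0.92, and the EGF family lies at 0.85 in basal cells.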

How the data were processed

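Single-cell 3′ RNA libraries from EpCAM-sorted mouse mammary cells were analysed, 4 in all and 1 per group. Each deposited matrix gives unnormalised UMI counts of 52636 genes, made by the authors with Cell Ranger 6.0.1, per the file headers, on GRCm38, per the submitters' processing notes. Other deposited files list the barcodes, gene identifiers and symbols as text. The annotation release, the treatment of intronic reads and the cell calling are not given in the sources used here. Genes were placed with GENCODE M21, which held 52489 of the identifiers, and promoter windows came from RefSeq (GRCm38.p6).

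Barcodes needed at least 1000 UMIs, at least 500 detected genes and a mitochondrial share no higher than 15%, which left 3029 of 3667 in the wild-type and 8622 of 10469 in the Y541S giredestrant library. Doublets were not removed in the values reported. In 1 alternative, the cells with the highest Scrublet scores (scanpy 1.11.5) were removed, up to 0.8% per 1000 barcodes. Where a symbol occurred more than once, the identifier with the most counts was used. Counts were summed per class and library (numpy 2.4.6, pandas 2.3.3), expressed as CPM and compared as ratios with exact conditional binomial 95% intervals (scipy 1.17.1). A gene called 2-fold apart had a ratio of 2 or more after the median was subtracted. The method was tested on simulated data. Shares of cells carry exact (Clopper-Pearson) intervals. A level of 0 was replaced by 3 counts for a bound. TMM factors came from edgeR 4.0.16, without a test.

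Cells near the limits were few: in the Y541S library 26 lay within 20% above and 42 within 20% below the secretory limit, and in the wild-type library 5 and 2. For the contractile limit the numbers were 65 and 52, and 20 and 16. The text names, per class, the 12 genes furthest higher and lower by the interval bound nearest 0 (gate, mitochondrial, ribosomal and unnamed genes left out), and from each list the 2 furthest members in each direction past 2-fold and the most abundant member. Further list members are named to complete their counts and were chosen after their values were seen. The members and lists were chosen with earlier results of these data known. Alternatives covered scaling, low-count filters, thinning, cell weighting, doublets, cell filters, class limits and cycling cells. Some genes that the rule names are not reported here.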

Additional observations from a re-analysis of the deposited data

Results flagged for a closer look

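These 15 values are of named genes whose direction differed between treatments. Y541S stood 2-fold or more above wild type with 1 treatment and 2-fold or more below it with the other. Only named genes tested with both treatments were searched, without the gate genes. Many were named for their difference with giredestrant, so the numbers below are not counts over all tested genes. Each group is 1 library and the difference between the treatments was not tested.

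In secretory cells there were 6. The relative log2 ratio of Csn2 was 14.00 (at a floor of 3 counts) with giredestrant and -1.58 with vehicle, that of Muc4 3.41 and -1.25, and that of Btn1a1 1.84 and -1.03. For Cxcl10 the values were -1.40 and 1.13, and for Msln 4.82 and -3.74, although most UMIs of both genes with giredestrant came from 5 cells. Mir6236 had 4.40 and -1.75.

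In basal cells there were 9. Lingo2 had 3.99 with giredestrant and -3.67 with vehicle, C3 had 1.81 and -1.08, Hbegf 1.76 and -1.07, and Mir6236 4.23 and -1.45. In the other direction, Serpinb11 had -2.22 and 1.80, Ramp1 -1.97 and 1.51, Wnt6 -1.69 and 1.51, Igfbp4 -1.12 and 1.35, and the agouti gene, a, -1.11 and 2.05.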

How the results depend on the processing

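No paired analysis was possible because each group has 1 library. Nothing reversed among the named genes in any alternative run. With a mean of 20 CPM or more required, 192 genes were higher and 206 lower in secretory cells and 204 higher in basal cells (140 lower). With 2 CPM or more there were 750 and 730 in secretory and 674 and 525 in basal cells. All other alternatives kept the counts within 1.5 times those reported. Stricter class limits moved the secretory share to 17.1% (wild type) and 12.7% (Y541S), and the basal share to 24% and 30.2%. Looser limits gave a secretory share of 16.4% in Y541S and basal shares of 34.0% and 43.9%.

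Of the named genes past 2-fold, 62 in secretory and 61 in basal cells, thinning to 2000 UMIs left 53 of 59 and 54 of 59 tested past it. Hspa1b, Insig1, Lamc1, Cxcl10, Cited4 and Cdk1 in secretory cells and Igfbp4, Smtn, Cdkn1a, H2-Ab1 and Socs1 in basal cells fell short. Without the median subtracted, Tgfb2 and Hspa1b in secretory cells and Smtn, Cdkn1a and Socs1 in basal cells fell short. With every cell weighted equally, Insig1, Cdk1, Stat5a and Hspa1b in secretory cells and Ifit1, Smtn, Cdkn1a, H2-Ab1 and Socs1 in basal cells fell short. With cycling cells left out, Top2a and Mki67 in basal cells and Cdk1 in secretory cells were no longer tested. Chosen after the data were seen, leaving out genes with 50% or more of their UMIs in 5 cells removed 11 tested genes in secretory and 4 in basal cells. Depth per cell limits shares of cells with a UMI, and the lack of replicates limits every comparison.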
